A study of Homo sapiens with 10 samples.

Results

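The miR-125 and miR-99/100 families were followed through a set of messenger RNA pull-downs, as the 6 PCR assays hsa-miR-125a-5p, hsa-miR-125a-3p, hsa-miR-125b, hsa-miR-99a, hsa-miR-99b and hsa-miR-100, out of 745 miRNA assays in all. They were chosen by name, with the opposite (star) strands left out, and are written below without the species prefix. The study put a nucleic acid probe into living cells for 24 hours, took up the probe with its bound RNA on streptavidin beads and measured the miRNAs that came with it, a procedure its submitters call miRIP. The cells were HepG2, a human liver tumour line, purified with a p21 probe, a STAT3 probe or a control probe, and PC-3, a human prostate cancer line, purified with a p21 probe or a control probe. No other treatment or genotype is given for either line. p21 is a cyclin-dependent kinase inhibitor and STAT3 a cytokine-activated transcription factor. Each of these 5 purifications was run on 2 PCR panels that carry different assays, which makes 10 samples. miR-125a-3p is on panel 2 and the other 5 assays are on panel 1.

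A miRNA guides an Argonaute protein to messenger RNAs, chiefly through its seed, the bases 2 to 8 from its 5′ end. miR-125a and miR-125b are the mammalian relatives of lin-4, the first miRNA found in Caenorhabditis elegans, and act on genes of growth and differentiation. miR-125b is reported to repress STAT3. miR-99a, miR-99b and miR-100 are known for repressing mTOR, a kinase that drives cell growth, and the IGF1 receptor. The genes of both families lie in clusters with let-7 genes, each a long primary transcript from which several hairpins can be cut.

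The mature sequences show why the assays are described as 2 families. All 6 names matched RefSeq entries on GRCh38.p14, and the seed is in capitals in each line.
miR-125a-5p: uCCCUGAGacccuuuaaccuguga
miR-125b: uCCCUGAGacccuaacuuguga
miR-125a-3p: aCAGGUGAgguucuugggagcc
miR-99a: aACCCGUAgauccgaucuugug
miR-100: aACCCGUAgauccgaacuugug
miR-99b: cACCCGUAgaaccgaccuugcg
miR-125a-5p and miR-125b share a seed and their first 13 bases and then diverge, over 24 and 22 bases. miR-125a-3p comes from the other arm of the miR-125a hairpin and has a seed of its own. miR-99a, miR-100 and miR-99b share a seed, and miR-99a and miR-100 differ in 1 of 22 bases (U16A, counted from the 5′ end, miR-99a first). miR-99b differs from miR-99a in 4 (A1C, U11A, U16C and U21C, miR-99a first). The sources used here do not say how well the assays separate such close sequences. Among 2370 mature names in the RefSeq table, 1 other carried a seed of these 6, and it is not on the panels.

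The genes form 3 clusters. On chromosome 19, miR-99b (chr19:51692618-51692639), let-7e (chr19:51692793-51692814), miR-125a-5p (chr19:51693268-51693291) and miR-125a-3p (chr19:51693306-51693327) lie on the plus strand within the span of SPACA6, with 104 bases between the miR-99b and let-7e hairpins and 389 between those of let-7e and miR-125a. On chromosome 21, miR-99a (chr21:16539101-16539122), let-7c (chr21:16539838-16539859) and a copy of miR-125b (chr21:16590253-16590274) lie on the plus strand within MIR99AHG. On chromosome 11, miR-100 (chr11:122152275-122152296), a copy of let-7a (chr11:122146568-122146589) and the second copy of miR-125b (chr11:122099809-122099830) lie on the minus strand within MIR100HG. The copies of miR-125b give the same mature sequence, so its signal cannot be assigned to a locus. The table used gives spans of genes, not their exons.

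Abundance was read as Cq, the cycle number at which the PCR signal of a well was called, so a lower Cq means more RNA and 1 cycle stands for 1 log2 unit if the product doubles in each cycle. A Cq of at most 35 counted as detected. Each condition was purified 1 time, so no p-value is given and the error of transfection and purification is unknown. The only error at hand was technical, from reference assays carried on both panels. Over 22 pairs of such wells the SD of a Cq was 0.63 cycles, and over 11 pairs the SD of a difference between purifications was 0.72. The gap between the differences of 2 assays then has an SD of 1.02. Most of the 11 pairs were of U6, SNORD38B and SNORD49A. The only miRNA among them, miR-103, varied more between the panels. It gave 5.59 and 3.32 log2 units for p21 over control in HepG2, and 2.32 and 0.80 for STAT3 over control. These SDs may therefore be too small for miRNA wells, and a gap called beyond 2 SD below is so only on them. Small RNAs that no probe was aimed at were higher too. On panel 1, U6, SNORD38B and SNORD49A were 1.86, 2.82 and 2.63 log2 units higher with the p21 probe than with the control probe in HepG2, and 1.44, 1.90 and 1.91 higher with the STAT3 probe, and their part in the values below was not tested.

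The 6 miRNAs were found in HepG2 and were mostly undetected in the PC-3 purifications. All 6 were detected with the p21 probe and all 6 with the STAT3 probe in HepG2, where 28.3% and 34.4% of the 745 assays were. The HepG2 control probe gave 4 of 6, against 16.8% of all assays. In PC-3 the p21 probe gave 1 of 6 (7.11% of all) and the control probe 0 of 6 (2.15%). At a limit of Cq 37 the 2 PC-3 purifications gave 3 and 1, and at Cq 32 both gave 0.

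**Figure D1:**
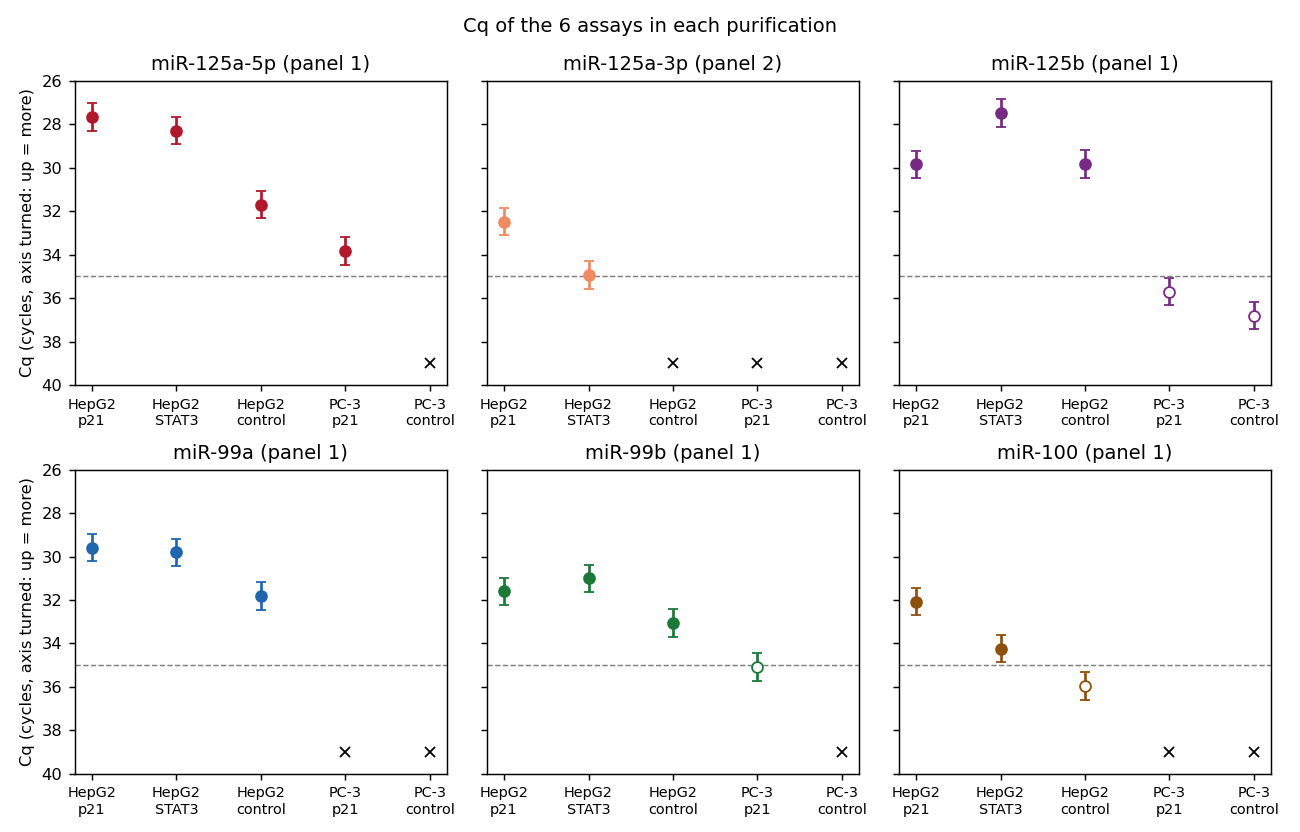
Cq of each assay (vertical axis in cycles, turned so that more RNA is higher) in the 5 purifications, with bars of 1 SD of repeated wells (0.63 cycles). Filled points are at or under the limit of 35 (dashed), open points are above it and crosses are wells without a Cq, drawn at a fixed height. miR-125b is highest with the STAT3 probe, while miR-125a-5p and miR-99a stand at nearly the same height with the p21 and STAT3 probes.

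miR-125a-5p, the main product of the chromosome 19 hairpin, was recovered with both target probes. Its Cq was 27.66 with the p21 probe, 28.29 with the STAT3 probe and 31.69 with the control probe in HepG2, and 33.82 with the p21 probe in PC-3, where the control probe gave no Cq. The p21 and STAT3 purifications of HepG2 differed by 0.62 cycles, within the error, and both stood above the HepG2 control by more than 2 SD (1.45 cycles). In the HepG2 p21 purification it had the 9th lowest Cq of 128 assays detected on the panel, in the STAT3 purification the 7th of 139 and in the control the 22nd of 108. Such ranks are rough, since assays differ in efficiency.

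miR-125b, which carries the same seed, behaved otherwise. Its Cq was 29.83 with the p21 probe, 27.48 with the STAT3 probe and 29.83 with the control probe in HepG2, and 35.70 with the p21 probe and 36.80 with the control probe in PC-3, both past the limit. The HepG2 p21 and control purifications were level, and the STAT3 purification stood 2.36 cycles above the control, beyond 2 SD. U6, SNORD38B and SNORD49A, at which no probe was aimed, rose by 1.44 to 1.91 between the same 2 purifications, so much of that step was shared with them. It was among the most abundant miRNAs of the control purification itself, with the 4th lowest Cq of 108. It was 5th of 139 with the STAT3 probe and 23rd of 128 with the p21 probe.

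miR-99a had a Cq of 29.59 with the p21 probe, 29.81 with the STAT3 probe and 31.83 with the control probe in HepG2, and no Cq in PC-3. Both target probes were above the control by more than 2 SD and differed from each other by 0.22 cycles, within the error. The steps over the control were 2.24 cycles with p21 and 2.02 with STAT3. They were near those of U6, SNORD38B and SNORD49A, at 1.86 to 2.82 and 1.44 to 1.91. miR-99b, from the chromosome 19 cluster, gave 31.60 with the p21 probe, 31.00 with the STAT3 probe and 33.05 with the control probe in HepG2, and 35.10 with the p21 probe in PC-3, where the control gave none. The step from its p21 to its control value was 1.45 cycles, no more than 2 SD.

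miR-100, which differs from miR-99a by a single base, had its purifications in the same order, with higher Cq values. Its Cq was 32.08 with the p21 probe, 34.24 with the STAT3 probe and 35.97 with the control probe in HepG2, the last past the limit, and there was none in PC-3. The p21 value lay 2.16 cycles above the STAT3 value, beyond 2 SD, and for miR-99a that gap (0.22) was within the error. Set directly against each other, miR-99a minus miR-100 was -1.94, less than 2 SD of such a value (SD 1.02). The 2 miRNAs are therefore not shown to differ in this gap. miR-125a-3p, from the other arm of the miR-125a hairpin, was at 32.47 with the p21 probe and at 34.94 with the STAT3 probe, next to the limit, with no Cq in the HepG2 control or in PC-3. These 2 were the members detected in HepG2 with target probes and not with the control.

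For a comparison, the Cq of the p21 or STAT3 purification was taken from that of its control, where both were detected, and the median of all such assays of the panel was then subtracted (centring). A centred difference of at least 1 log2 unit (2-fold) was counted, a size only slightly above the technical SD. The panel 1 medians were 1.30 log2 units for p21 over control and 0.49 for STAT3 over control (87 assays each), and 0.64 for p21 over STAT3 (102 assays). The comparisons with the HepG2 control share that purification.

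With the p21 probe against the control probe in HepG2, miR-125a-5p had the highest difference of the members and miR-125b the lowest. miR-125a-5p was 4.03 log2 units higher before centring and 2.73 after it (6.61-fold), the 11th of 87 assays. miR-99a was 2.24 higher and 0.94 after centring, and miR-99b 1.45 and 0.15. miR-125b was at -0.0017 before centring and -1.30 after it, 60th of 87. Thus 1 of 4 was at least 2-fold higher and 1 lower after centring, a share no larger than the 37.9% higher and 36.9% lower among all 103 assays detected with both probes. Without centring 3 of 4 were at least 2-fold higher and 0 lower, against 54.4% and 10.7%. On the reference assays 0 of 4 were higher and 3 lower. Signs depended on the centre for 3 of the 4: miR-125b became 2.28 on the UniSp3 calibrator, and miR-99a and miR-99b became -1.48 and -2.28 on the reference assays. The 4 had an uncentred median of 1.84, beside 1.30 for the panel.

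The other 2 members were past the limit with the control probe. With the control set to Cq 35, miR-100 was at least 7.58-fold higher before centring and at least 3.07-fold after it, and miR-125a-3p at least 5.78-fold and 2.77-fold. Of the 620 assays not detected with the control probe, 17.4% were detected with the p21 probe. On the authors' deposited table, which for these members sets undetected wells to 35 and scales on UniSp6 as far as its values show, the p21 folds were 13.8 for miR-125a-5p, 6.43 for miR-100, 4.52 for miR-125a-3p, 4.01 for miR-99a, 2.31 for miR-99b and 0.848 for miR-125b.

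With the STAT3 probe against the control probe in HepG2, the 4 members measured with both probes were all higher than the panel median. miR-125a-5p was 3.40 log2 units higher before centring and 2.91 after it (7.53-fold, 7th of 87). miR-125b was 2.36 and 1.86 higher (3.64-fold after centring, 13th), miR-99b 2.05 and 1.56 (16th) and miR-99a 2.02 and 1.53 (17th). All 4 of 4 were at least 2-fold higher after centring and 0 lower, beside 29% higher and 25% lower of 100 assays. The same held without centring, beside 41% and 20%. Their uncentred median was 2.20, beside 0.49 for the panel. The count rested on the centre and on the detection limit. By centre, 1 of 4, miR-125a-5p, stayed 2-fold higher on the reference assays (1.30) or on U6, SNORD38B and SNORD49A (1.65). On the reference assays miR-99a and miR-99b turned to -0.087 and -0.057. At a limit of Cq 32, which keeps only the more abundant assays, 1 of 3 members, again miR-125a-5p, was at least 2-fold higher after centring. There miR-125b and miR-99a fell to 0.45 and 0.11, and miR-99b had no value. The part of abundance in the excess over the panel median was not tested.

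The range over the 4 was 1.38 log2 units under the STAT3 probe and 4.03 under the p21 probe. miR-100 was detected with the STAT3 probe and not the control, at least 1.70-fold higher before centring and 1.21-fold after it. miR-125a-3p lay so near the limit with the STAT3 probe that no fold is given. Of assays undetected with the control probe, 25.2% were detected with the STAT3 probe. The authors' deposited table lists STAT3 folds of 14.8 for miR-125a-5p, 7.18 for miR-125b, 5.81 for miR-99b, 5.69 for miR-99a, 2.38 for miR-100 and 0.589 for miR-125a-3p.

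**Figure D2:**
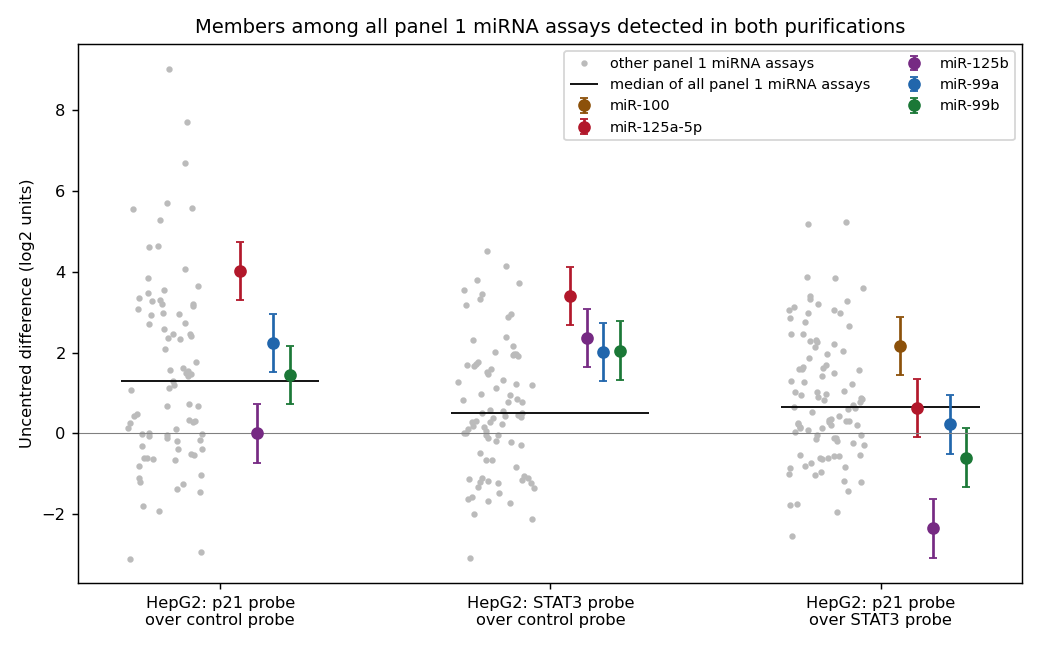
Uncentred differences in log2 units for panel 1 assays detected in both HepG2 purifications of each comparison. Grey points are other assays, black lines the panel medians, and coloured points the members with bars of 1 SD of repeated wells (0.72). Under the STAT3 probe the 4 members sit together, between 2.02 and 3.40, and under the p21 probe they spread from -0.0017 to 4.03.

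The relation of the seed-sharing pair can be read without any centre, since a panel-wide shift drops out of a difference between assays on the same panel. Under the p21 probe miR-125a-5p gained 4.03 log2 units more than miR-125b over the control, several times the SD of such a value (1.02). Under the STAT3 probe it gained 1.05 more, about 1 SD. The 2 results share the control well of each assay. Within the miR-99/100 family, miR-99a and miR-99b differed by 0.79 under the p21 probe and by -0.030 under the STAT3 probe (miR-99a minus miR-99b), both within the error.

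Compared with the STAT3 probe in the same cells, the p21 probe recovered less miR-125b and more miR-100 and miR-125a-3p. miR-125b was at -2.36 log2 units before centring and at 0.125 times its STAT3 level after it, the 101st of 102 assays from the top. miR-100 was 2.16 higher and 1.52 after centring (2.86-fold), and miR-125a-3p 2.47 and 2.39 (5.23-fold, 6th of 53 on panel 2). miR-99b was at -0.60 and -1.24, miR-99a at 0.22 and -0.42, and miR-125a-5p at 0.62 and -0.016. So 2 of 6 were at least 2-fold higher and 2 lower, beside 29% and 20% of all 155 assays. On UniSp3 miR-99b turned to 0.38, miR-99a to 1.20 and miR-125a-5p to 1.60, while miR-125b stayed negative under every centre tried, from -4.01 to -1.38.

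In this direct comparison miR-125a-5p stood 2.98 log2 units above miR-125b, a gap beyond 2 SD of such a value. miR-99a minus miR-100, which differ by a single base, came to -1.94, less than 2 SD. The arms of the miR-125a hairpin differed too, at 2.39 for miR-125a-3p and -0.016 for miR-125a-5p after centring, but they sit on different panels and the STAT3 value of miR-125a-3p was at the limit.

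The let-7 miRNAs of the same clusters had differences unlike those of several of their neighbours. let-7e, between miR-99b and miR-125a on chromosome 19, had a Cq of 28.62 with the p21 probe, 31.67 with the STAT3 probe and 33.27 with the control probe in HepG2. Uncentred, it was 4.65 log2 units higher with p21, close to miR-125a-5p (4.03), and the gap of miR-99b to it (1.45 minus 4.65) was -3.20. With STAT3 it was 1.60 higher, below miR-99b (2.05) and 1.81 below miR-125a-5p (3.40). The gap of -3.20 was beyond 2 SD of such a value, and that of 1.81 was not. For p21 directly over STAT3, miR-125a-5p minus let-7e was -2.43 and miR-99b minus let-7e -3.65, both beyond it.

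On chromosome 21, let-7c had a Cq of 30.16 with the p21 probe, 34.01 with the STAT3 probe and 34.24 with the control probe in HepG2. It was 4.07 log2 units higher with p21 and 0.23 with STAT3, whereas miR-99a, with 658 bases between the hairpins, was 2.24 and 2.02 higher. miR-99a minus let-7c was thus -1.83 under p21 and 1.79 under STAT3, each short of 2 SD, and -3.62 for p21 directly over STAT3, which was beyond it. let-7a, which has gene copies outside the chromosome 11 cluster as well, was at 33.18 with the p21 probe, 35.63 with the STAT3 probe and 33.85 with the control probe. It was 0.67 higher with p21, near miR-125b at -0.0017, and was not detected with STAT3, where miR-125b was highest. Between p21 and STAT3 directly, let-7c and let-7e were 3.84 and 3.05 higher with p21 uncentred. Their neighbours miR-99a, miR-99b and miR-125a-5p were at 0.22, -0.60 and 0.62.

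**Figure D3:**
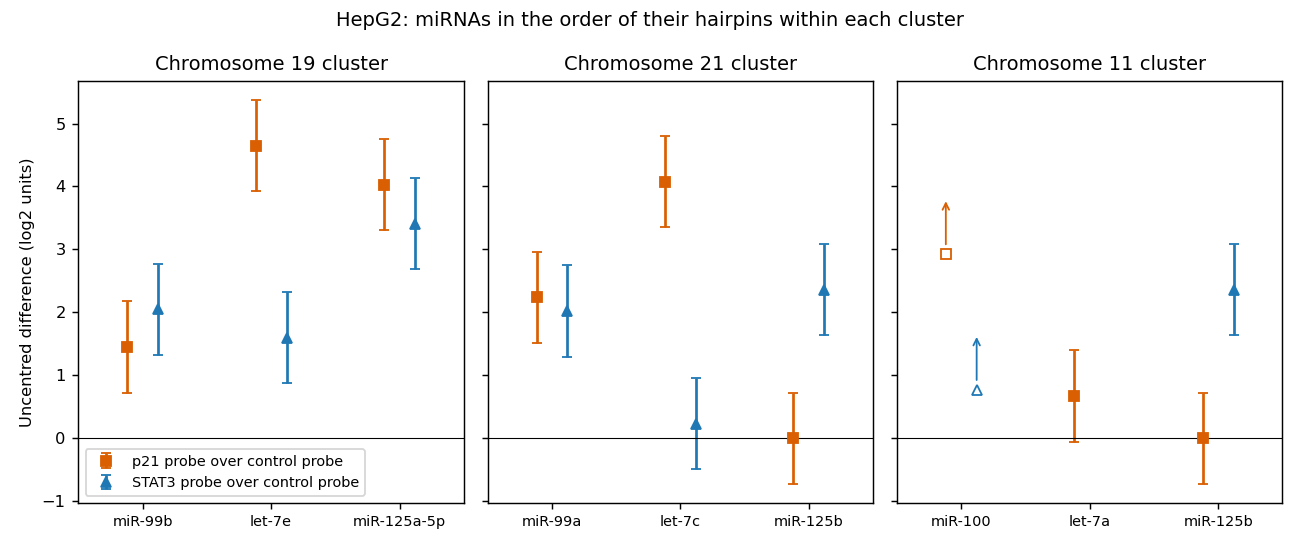
Uncentred differences from the control probe in HepG2 (log2 units) for the miRNAs of each cluster in hairpin order, squares for the p21 probe and triangles for the STAT3 probe, with bars of 1 SD of repeated wells (0.72). Open symbols with arrows are lower bounds where the control was past the limit, let-7a has no STAT3 value, and miR-125b appears in both of its clusters. let-7e and let-7c have their p21 value well above their STAT3 value, miR-125b has it below, and miR-99a, miR-99b and miR-125a-5p have both close together.

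In PC-3 the members gave little to compare. Only miR-125a-5p passed the limit with the p21 probe, at Cq 33.82 against none with the control, at least 2.27-fold higher before centring. The panel 1 centre there was 1.89 log2 units from 6 assays, which leaves no fold above 1. Of 729 assays undetected with the PC-3 control, 5.9% were detected with the p21 probe. In the authors' deposited table miR-125a-5p stands at 1.61 for PC-3, and miR-125b, miR-99a, miR-99b and miR-100 all stand at 0.71, a value shared by 335 of 729 entries because both wells were past 35 and only UniSp6 entered.

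Between the lines, the p21 purification of HepG2 held more miR-125a-5p than that of PC-3, by 6.16 log2 units uncentred and 3.65 centred (12.6-fold, 4th of 31 assays on panel 1). Among all 45 assays detected in both, 37.8% were at least 2-fold higher after centring and 31.1% lower. let-7e of the same cluster was 2.41 higher uncentred and -0.095 centred, so miR-125a-5p minus let-7e was 3.75. miR-99a was at least 7.50-fold and miR-125b at least 6.32-fold higher in HepG2 after centring, with PC-3 at the limit, and miR-99b, miR-100 and miR-125a-3p at least 1.85-fold, 1.34-fold and 1.17-fold. Those 5 were detected in HepG2 and not in PC-3, as were 24% of 692 assays undetected in PC-3. With the control probe, miR-125b was at least 11.9-fold higher in HepG2 than in PC-3 after centring, miR-125a-5p at least 3.28-fold, miR-99a 2.99-fold and miR-99b 1.28-fold, beside 15.8% of 729 assays detected in the HepG2 control and not in that of PC-3. The centre for the control probe rested on 6 assays of panel 1. Whether the lines differed in the amount of these miRNAs per cell was not measured.

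The choice of centre moves all members of a panel by the same amount, so their order is fixed by construction and their signs are not. For p21 over control, miR-125a-5p ran from 0.30 (reference assays) to 6.31 (UniSp3), miR-99a from -1.48 to 4.52, miR-99b from -2.28 to 3.73 and miR-125b from -3.72 to 2.28. For STAT3 over control, miR-125a-5p ran from 1.30 to 4.70 and miR-125b from 0.25 to 3.65. The reference centre holds miR-103 and miR-423-5p, which were themselves high with the p21 probe.

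**Figure D4:**
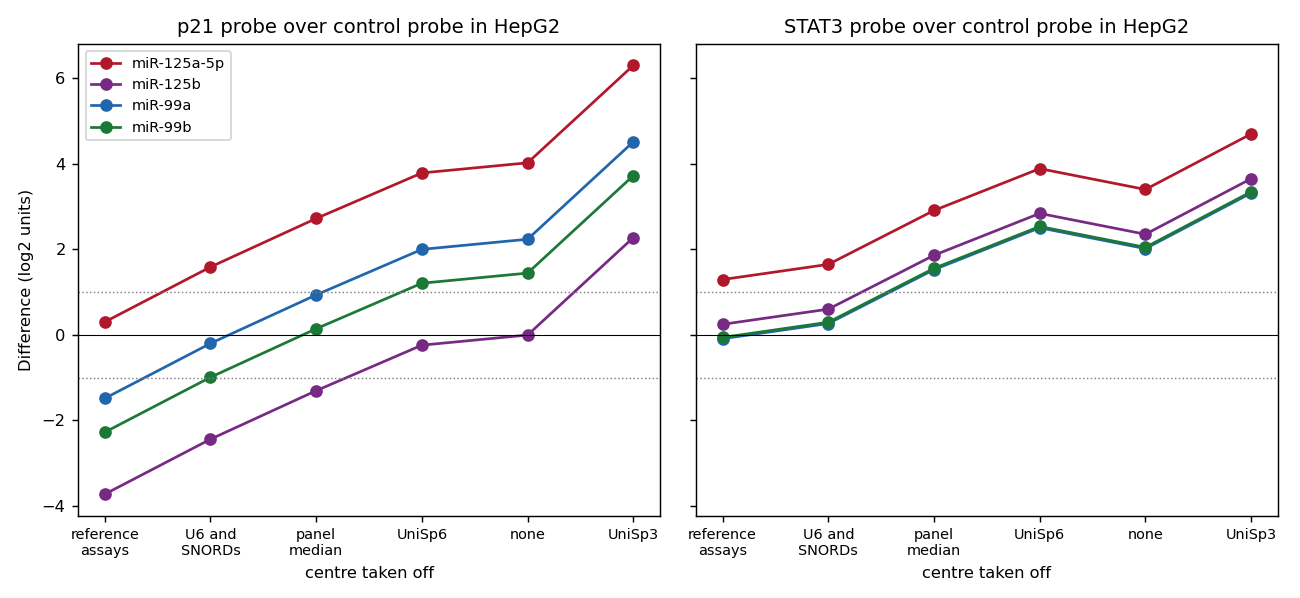
Difference from the control probe in HepG2 (log2 units) of the 4 members detected with both probes, under each centre on the horizontal axis. Dotted lines mark 2-fold. miR-125a-5p stays above 0 and miR-125b lowest under p21 throughout, while miR-99a and miR-99b lie almost on each other under STAT3.

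The assays whose pattern over the 5 purifications was most like that of a member were found by the root mean square difference of Cq, with undetected wells at 35 and each assay's mean taken off. For miR-125a-5p these were miR-23a (0.45 cycles), miR-24 (0.67) and miR-99a (0.76) of 122 assays. miR-99a was nearest to miR-27a (0.28), miR-93 (0.38) and miR-23b (0.43), and miR-99b to miR-25 (0.30), miR-30b (0.36) and miR-23b (0.38). The nearest assay to miR-125b lay further off than that of any other member, with miR-124 at 0.67, miR-30c at 0.76 and miR-99a at 1.11. miR-100 was nearest to miR-326 (0.20), miR-483-3p (0.20) and miR-185 (0.25), and miR-125a-3p to miR-193b* (0.11), miR-330-5p (0.16) and miR-485-3p (0.18) of 63 on panel 2. The small distances of the last 2 members partly follow from their wells at the limit, which are equal for all assays not detected there.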

How the data were processed

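The labels give 5 purifications, each on 2 Exiqon SYBR Green RT-PCR panels. The deposited scores are unnormalised Cq values, 1 well per assay, per the file headers. The authors also deposited a ratio table, described in its header as 2 to the power of minus ΔΔCt against an unnamed housekeeping gene. Its columns are titled as log values but hold linear folds, and rebuilding the members' values with UniSp6 and a limit of 35 returned them. Probe sequences, the instrument and the threshold were not given in those sources.

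Differences, panel-median centres, bounds and ranks were computed in Python 3.11.15 with pandas 2.3.3 over all 745 miRNA assays (375 on panel 1, 370 on panel 2). The centred differences were tested on simulated data, with known shifts put on HepG2 control values, and the bounds and ranks were not. Only a few assays of low Cq were shifted, with noise smaller than that of repeated wells. The simulation therefore does not cover data in which many assays differ, as for p21 over control in HepG2 (37.9% higher and 36.9% lower after centring). An assay had a value where both Cq were at most 35. Samples were grouped by title, and panels are not replicates. Members and lists (cluster partners, opposite strands, miR-10 relatives, the 3 most alike assays per member) were chosen with earlier results of these data known. The 9 alternatives covered the centre, the limit, undetected wells and the authors' folds.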

Additional observations from a re-analysis of the deposited data

How the results depend on the processing

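No paired analysis was possible because each condition has 1 purification and the result comes from no test. Counts are of members with a value, whose number changes with the limit and with the treatment of undetected wells. Members at least 2-fold higher for p21 over control in HepG2 numbered 1 of 4, and 3 of 4 without centring or on UniSp6, 4 of 4 on UniSp3, 0 of 4 on the reference assays, 3 of 5 at Cq 37, 3 of 6 with undetected wells at 35 and 5 of 6 in the authors' deposited folds. Lower ones numbered 1 of 4, and 3 of 4 on the reference assays, 0 of 4 without centring, on UniSp6 or on UniSp3, 0 of 5 at Cq 37 and 0 of 6 in the authors' deposited folds. For STAT3 over control the 4 of 4 higher became 1 of 4 on the reference assays or on U6 and the SNORDs and 1 of 3 at Cq 32, and 1 of 6 was lower with undetected wells at 35 (miR-125a-3p, at the limit). For p21 over STAT3 the 2 of 6 higher became 1 of 6 on the reference assays, 4 of 6 on UniSp3 and 0 of 4 at Cq 32, and the 2 of 6 lower became 1 of 6 without centring or on UniSp3 and 4 of 6 on the reference assays. For HepG2 over PC-3 with the p21 probe the 1 of 1 higher became 3 of 3 at Cq 37 and 3 of 6 with wells at 35, and no member had a value at Cq 32. With the control probe no member had a value, and 1 of 1 was higher at Cq 37 and 3 of 4 with wells at 35. Members detected in PC-3 were 1 with p21 (0 at Cq 32, 3 at Cq 37) and 0 with control (1 at Cq 37). Among values of at least 1 log2 unit, signs turned for miR-125b, p21 over control (2.28 on UniSp3), miR-99b, p21 over STAT3 (0.38 on UniSp3), and miR-99a and miR-99b, STAT3 over control (-0.087 and -0.057 on the reference assays). Among smaller ones, for p21 over control miR-99a turned to -1.48 on the reference assays, -0.20 on U6 and the SNORDs and -0.12 at Cq 32, and miR-99b to -2.28 and -0.99 on the first 2 of these. For p21 over STAT3, miR-99a turned to 0.22 without centring and 1.20 on UniSp3, and miR-125a-5p to 0.62 and 1.60 there and to 0.20 at Cq 37. An assay past the limit in both purifications got no value when wells were set to 35. Values near Cq 35 rest on few template molecules. Beyond the change in which members have a value, the cause of these changes was not tested.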

Other observations

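The opposite strands of the same hairpins were rarely detected. In HepG2, miR-99b* gave a Cq of 34.46 (p21 probe) and 35.08 (STAT3 probe), and none with the control probe. It gave 34.84 with the p21 probe in PC-3 and none with the PC-3 control, so in PC-3 it passed the limit where miR-99b itself (35.10) did not. miR-99a* stayed past the limit, at 36.60 with the p21 probe, 35.08 with the STAT3 probe and 38.02 with the control probe in HepG2. miR-125b-1* was at 37.39 (p21 probe) and 35.60 (STAT3 probe) in HepG2, miR-125b-2* at 37.30 with the STAT3 probe alone, and miR-100* had no Cq in any purification.

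miR-10a and miR-10b, whose sequences resemble the miR-99/100 family with an offset, were not detected at Cq 35. miR-10a was at 36.50 with the p21 probe, 35.83 with the STAT3 probe and 38.55 with the control probe in HepG2, and miR-10b at 36.81 with the STAT3 probe.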
